A study of Mus musculus with 56 samples.

Results

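The matrix genes of 4 tissues were followed in mice carrying 1, 2 or 3 copies of a chromosome 7 segment. Members were all probe sets of the array whose single annotated gene symbol names a collagen chain (Col), a laminin chain (Lama, Lamb or Lamc), an ADAMTS protease (Adamts, a secreted metalloprotease with thrombospondin motifs) or a matrix metalloprotease (Mmp). The rule used names alone and no measured value, but the members were chosen with earlier results of these data known. It gave 101 probe sets for 94 genes, of 41155 probe sets on the array and of 23521 that list a single symbol. There were 47 probe sets for 44 collagen chains, 10 for 10 laminin chains, 20 for 18 Adamts genes and 24 for 22 Mmp genes. Adamts8, Adamts14, Col1a2, Col5a1, Col6a1, Mmp7 and Mmp11 had 2 probe sets each. Another 2 probe sets hold a matching symbol beside other genes and were not counted. Adamts2 and Mmp15 were not analysed here.

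Collagens are trimeric proteins. The fibrillar chains build the fibres of connective tissue, while type IV chains build the network of basement membranes, the thin sheets under epithelia and around blood vessels. Laminins, each made of an alpha, a beta and a gamma chain, form the other network of these sheets. ADAMTS enzymes trim procollagens or cleave proteoglycans such as aggrecan, brevican and versican, and Mmp enzymes cut collagens, gelatin and other matrix or cell surface proteins. In the brain the fibrous matrix is sparse and lies mainly in vessels, meninges and choroid plexus, and proteoglycans fill the space between cells.

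The study asked which genes change with the copy number of the mouse region from Sult1a1 to Spn on chromosome 7, which corresponds to the human 16p11.2 region, using Affymetrix Mouse Gene 2.1 ST arrays (1 array for each piece of tissue). Del/+ mice lacked 1 copy of the region and Dup/+ mice carried 1 more copy, and wt mice had neither change. Both rearrangements are germline, made by Cre-loxP recombination in the mouse, so every cell type carries them. All mice were adult males labelled C57BL/6N. Cerebellum and liver gave 3 Del/+, 3 Dup/+ and 6 wt arrays each, and striatum and hippocampus gave 4 Del/+, 4 Dup/+ and 8 wt arrays each, 56 in all. Signals are on a log2 scale, so a difference of 1 is a doubling. The 44 brain arrays were normalized together and the 12 liver arrays apart, so liver was set beside brain only by percentile.

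Genotype labels were checked on the engineered region itself. The mean log2 signal of its 22 to 24 genes measured above background lay, in every tissue, lowest in all Del/+ arrays and highest in all Dup/+ arrays. In striatum it was 6.35 to 6.48 in Del/+, 7.37 to 7.48 in Dup/+ and 6.94 to 7.11 in wt arrays. The arrays also differed in the tissue they held. In striatum, a list of thalamus and midbrain genes averaged 7.24 and 7.36 in Dup/+ mice 21 and 47, 5.55 and 5.41 in Dup/+ mice 19 and 54, 5.20 to 5.77 in Del/+ and 5.24 to 5.83 in wt arrays. Their striatal neuron list was low (9.38 in mouse 21 and 10 in mouse 47, against 10.79 to 11.16 in Del/+ and 10.66 to 11.15 in wt arrays). In hippocampus, the striatal list stood at 9.95 in Dup/+ mouse 47 and at 6.62 to 6.99 in every other array. In cerebellum, a hepatocyte list averaged 6.51 in Del/+ mouse 17 and 5.40 in Dup/+ mouse 19, against 4.19 to 4.68 in all other cerebellum arrays. The same list reached 5.90 in wt striatum (median 4.58), 5.23 in Dup/+ striatum (median 4.40) and 5.34 in Dup/+ hippocampus (median 4.30). By the median of each genotype, lists of striatal, hippocampal, cerebellar and hepatocyte genes were each highest in the tissue of their name. By single arrays, the striatal list in hippocampus of Dup/+ mouse 47 (9.95) exceeded that in striatum of Dup/+ mouse 21 (9.38).

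A wt mean was taken as above background when it exceeded the 95th percentile of 1405 olfactory and vomeronasal receptor probe sets in the same tissue. By this measure 66 of 101 member probe sets were above background in liver, 72 in cerebellum, 75 in striatum and 68 in hippocampus. The shares of all single-symbol probe sets were 63.2%, 67.1%, 66.7% and 66.2% in the same tissues. Of the members, 54 were above background in all 4 tissues and 18 in none. The 6 probe sets above background only in liver were those of Adamts7, Col4a4, Col10a1, Col22a1 and Mmp27 and 1 of the 2 for Adamts14, whose other probe set was above background in all 4 tissues. Another 13 probe sets were above background in all 3 brain regions and not in liver, among them Col4a5, Col7a1, Col11a1, Col19a1, Adamts3, Adamts16, Adamts20 and Mmp16. Of the 11 probe sets of the Mmp gene cluster on chromosome 9, which holds the collagenases Mmp1a, Mmp1b, Mmp8 and Mmp13 and the stromelysins Mmp3 and Mmp10, 9 were above background in no tissue. Most of this cluster was thus measured only as not above background.

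The signal of a probe set depends on its probes as well as on RNA, so each was ranked within a tissue, and the ranks were read between tissues. In liver, the highest percentiles belonged to Col18a1, whose cleaved end is endostatin, and to Mmp19. Col18a1 had a log2 signal of 9.06 ± 0.12 (SD, n = 6 wt) at percentile 94.5 in liver, against 62.5 in cerebellum, 41.9 in striatum and 42.6 in hippocampus. Mmp19 was at 8.92 ± 0.14 in liver, percentile 94.0, and at 45.1, 41.4 and 45.8 in cerebellum, striatum and hippocampus. Both had lower percentiles in each brain region. The fibril-associated Col14a1 (percentile 87.7 in liver), the membrane-bound Mmp14 (86.0), the laminin chain Lamc1 (80.2), the proteoglycan-cleaving Adamts1 (78.8), Col6a1 (75.1) and the gelatinase Mmp2 (73.9) followed in liver.

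In each brain region the member of highest rank was a membrane-bound metalloprotease, Mmp24 in cerebellum and Mmp17 in striatum and hippocampus. Mmp24, which is known for cleaving N-cadherin, was at percentile 97.1 in cerebellum, 82.0 in striatum and 84.1 in hippocampus, against 42.5 in liver. Mmp17, which is held in the membrane by a lipid anchor, was at 78.8, 92.1 and 91.1 in these regions and at 42.8 in liver. The liver means of Mmp24 (3.18) and Mmp17 (3.19) lay barely above the liver background of 3.15. Mmp16 was at 77.9, 85.1 and 86.2, against 17.7 in liver, where its mean log2 signal of 2.21 lay below background. Adamts4, an aggrecan- and brevican-cleaving enzyme, was at 76.3, 79.0 and 75.8, against 49.4 in liver. Lamc1, the gamma chain of most laminins, was at 80.2 in liver and at 70.5, 79.1 and 77.9 in brain. The median percentile of the members was 49.8 in liver, 46.6 in cerebellum, 46 in striatum and 46.8 in hippocampus.

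**Figure D1:**
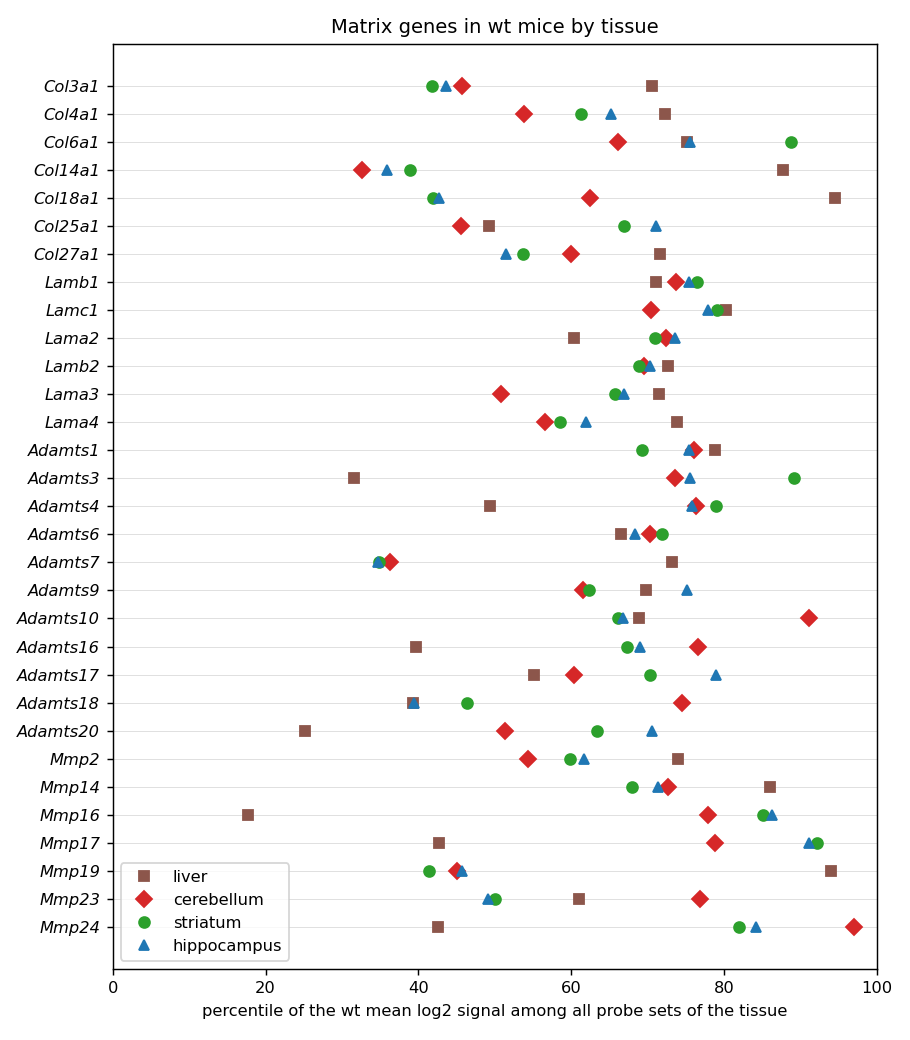
Percentile of the wt mean signal of each member probe set among all probe sets of the tissue, shown for the 31 members that reached 70 in at least 1 tissue (squares, liver; diamonds, cerebellum; circles, striatum; triangles, hippocampus). Col18a1 and Mmp19 are high in liver, and Mmp16, Mmp17 and Mmp24 are high in the brain regions.

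Differences between brain regions were tested on wt arrays with limma (5% false discovery rate, FDR, over all probe sets kept by the filter of the study, which asks for 1 array at or above the median signal and for variance above the 25th percentile). The filter kept 60 of 101 members, 30 collagen, 6 laminin, 15 Adamts and 9 Mmp probe sets. Because it uses the variance over all brain arrays, a probe set that differs between regions passes more easily. As 1 array at the median signal is enough, a probe set can also pass through the region where it is high. Of the 60, 17 were higher and 22 lower in cerebellum than in hippocampus, where 36% of all kept probe sets with a gene were higher and 37.5% lower. Against striatum, 25 were higher and 20 lower in cerebellum (all genes 38.4% and 37.1%). In striatum against hippocampus, 9 were higher and 20 lower (all genes 20.8% and 24%). With a difference of at least 1 on the log2 scale as well, 5 members were higher and 7 lower in cerebellum than in hippocampus (all genes 7.66% and 11.5%), 7 higher and 7 lower in cerebellum than in striatum (8.99% and 12.6%), and 3 higher and 1 lower in striatum than in hippocampus (3.24% and 3.08%). At 5% FDR the members' own shares were 28.3% and 36.7%, 41.7% and 33.3%, and 15% and 33.3% in the same order. The 41.7% and the last 33.3% were above the shares of all genes (38.4% and 24%), and the others were below.

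Among the 60 tested, the 4 members furthest above hippocampus in cerebellum were proteases, Adamts18, Adamts10, Mmp23 and Mmp24. Adamts18 had log2 signals of 6.73, 6.99 and 7.13 (lowest, median and highest of 6 arrays) in wt cerebellum, 4.10, 4.55 and 5.19 in striatum and 3.91, 3.99 and 4.76 in hippocampus (8 arrays each). The cerebellum arrays did not overlap with those of the other regions. The measured difference in cerebellum from hippocampus was 2.83 ± 0.15 (SE, adjusted p = 1.57e-13) on the log2 scale, a lower bound, since the hippocampus mean of 4.12 was not above the background of 4.13. Adamts10, which binds fibrillin microfibrils, had 8.59, 8.69 and 8.81 in cerebellum, 6.03, 6.07 and 6.31 in striatum and 5.91, 6.20 and 6.45 in hippocampus, a difference of 2.52 ± 0.08 (SE, adjusted p = 8.23e-18) from hippocampus. Mmp24 had 9.75, 9.94 and 10.04 in cerebellum, 7.36, 7.64 and 7.72 in striatum and 7.64, 7.84 and 7.97 in hippocampus, a difference of 2.10 ± 0.07 (SE, adjusted p = 1.18e-17) from hippocampus. For both, every cerebellum array lay above every array of the other regions. Mmp23 differed from hippocampus by 2.40 ± 0.13 (SE, adjusted p = 1.58e-13). Mmp23, Adamts10, Adamts18 and Mmp24 were also the 4 members furthest above striatum in cerebellum, by 2.34, 2.56, 2.38 and 2.31.

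Other proteases were lower in cerebellum. Mmp17 had 7.26, 7.32 and 7.51 in cerebellum, 8.65, 8.90 and 9.07 in striatum and 8.53, 8.70 and 8.88 in hippocampus, a difference of -1.36 ± 0.08 (SE, adjusted p = 3.16e-13) from hippocampus. Adamts17 differed by -1.61 and Adamts20 by -1.57 from hippocampus. Adamts3, which trims procollagens and also activates the growth factor VEGF-C, was the member furthest above hippocampus in striatum. Its log2 signals were 8.20, 8.47 and 8.58 in striatum, against 6.80, 6.96 and 7.23 in hippocampus, a difference of 1.46 ± 0.07 (SE, adjusted p = 1.28e-13), and the regions did not overlap. In cerebellum it differed from striatum by -1.57. Adamts9, by contrast, was lower in striatum, with a difference of -1.13 ± 0.08 (SE, adjusted p = 6.15e-11) from hippocampus, and the 2 probe sets of Adamts8 differed by -0.81 and -0.52. Of 15 Adamts probe sets, 5 were higher and 5 lower in cerebellum than in hippocampus, 7 higher and 4 lower in cerebellum than in striatum, and 5 higher and 7 lower in striatum than in hippocampus. Of 9 Mmp probe sets the counts were 3 and 3, 4 and 3, and 0 and 3. Of all kept genes, 36% were higher and 37.5% lower, 38.4% and 37.1%, and 20.8% and 24% in the same order.

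Among the collagens, Col6a1, a chain of the beaded type VI microfibrils, was highest in striatum. It had 5.96, 6.15 and 6.49 in cerebellum, 8.05, 8.42 and 8.56 in striatum and 6.52, 7.0 and 7.42 in hippocampus, and the regions did not overlap. Its difference in striatum from hippocampus was 1.41 ± 0.11 (SE, adjusted p = 8.40e-10), and that in cerebellum from striatum was -2.18 ± 0.12 (SE, adjusted p = 3.11e-13). The other Col6a1 probe set gave 1.04 and -1.48 in the same comparisons, but it was above background in striatum alone, so these values are bounds. Col6a2 was also higher in striatum than in hippocampus, by 0.51. Col6a4 was higher by at least the measured 0.55, since it was not above background in hippocampus. Col25a1, a membrane collagen of neurons, had 4.18, 4.54 and 4.77 in cerebellum, 5.87, 6.23 and 6.41 in striatum and 6.31, 6.48 and 7.08 in hippocampus, a difference of -2.03 ± 0.11 (SE, adjusted p = 4.11e-13) in cerebellum from hippocampus. Col18a1 was higher in cerebellum, with 5.71, 5.86 and 6.12, against 3.81, 4.34 and 4.62 in striatum and 3.94, 4.37 and 4.59 in hippocampus, a difference of 1.55 ± 0.12 (SE, adjusted p = 1.51e-10) from hippocampus. The main chain genes of basement membrane, Col4a1 and Col4a2, were lower in cerebellum. They differed there from hippocampus by -0.92 ± 0.09 (SE, adjusted p = 1.43e-08) and -1.22 ± 0.10 (SE, adjusted p = 6.57e-10), and from striatum by -0.58 and -0.84. In striatum against hippocampus they differed by -0.34 and -0.39, past 5% FDR in both. Of 30 collagen probe sets, 8 were higher and 10 lower in cerebellum than in hippocampus, 13 and 10 in cerebellum than in striatum, and 4 and 8 in striatum than in hippocampus. The shares of all kept genes were 36% and 37.5%, 38.4% and 37.1%, and 20.8% and 24%.

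The fibrillar chains of interstitial collagen ranked higher in liver than in brain. Col1a1 was at percentile 65.9 in liver and at 59.9, 51.8 and 57.9 in cerebellum, striatum and hippocampus, and Col3a1 at 70.6, 45.6, 41.8 and 43.6. Col1a2 had 5.90, 6.00 and 6.11 in cerebellum, 4.83, 4.99 and 5.14 in striatum and 5.34, 5.60 and 5.76 in hippocampus, a difference of -0.58 ± 0.07 (SE, adjusted p = 3.54e-07) in striatum from hippocampus. Col1a1 was lower in striatum too, with a difference of -0.47 ± 0.12 (SE, adjusted p = 0.00293) from hippocampus, while Col3a1, which did not pass, differed by -0.11 ± 0.18 (SE, adjusted p = 0.697). The other Col1a2 probe set was above background in no tissue. Of the minor type IV chains, Col4a3 was above background in no tissue, Col4a4 in liver alone, Col4a6 in cerebellum alone and Col4a5 in the 3 brain regions. The gelatinase Mmp2 differed in cerebellum from hippocampus by -0.56 ± 0.11 (SE, adjusted p = 7.64e-05), and the other gelatinase Mmp9, which is released by neutrophils among other cells, by 0.23 ± 0.12 (SE, adjusted p = 0.0878). Of the proteoglycan-cleaving enzymes, Adamts1 differed in striatum from hippocampus by -0.54 ± 0.09 (SE, adjusted p = 3.89e-05), Adamts4 by 0.31 ± 0.09 (SE, adjusted p = 0.00707), Adamts15 by -0.46 ± 0.14 (SE, adjusted p = 0.0152) and Adamts5 by 0.80 ± 0.13 (SE, adjusted p = 2.28e-05), the last a lower bound because Adamts5 was not above background in hippocampus. Adamts13, which cuts von Willebrand factor and is made by hepatic stellate cells, was at percentile 69.7 in liver, against 41.2 to 44.1 in the brain regions.

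**Figure D2:**
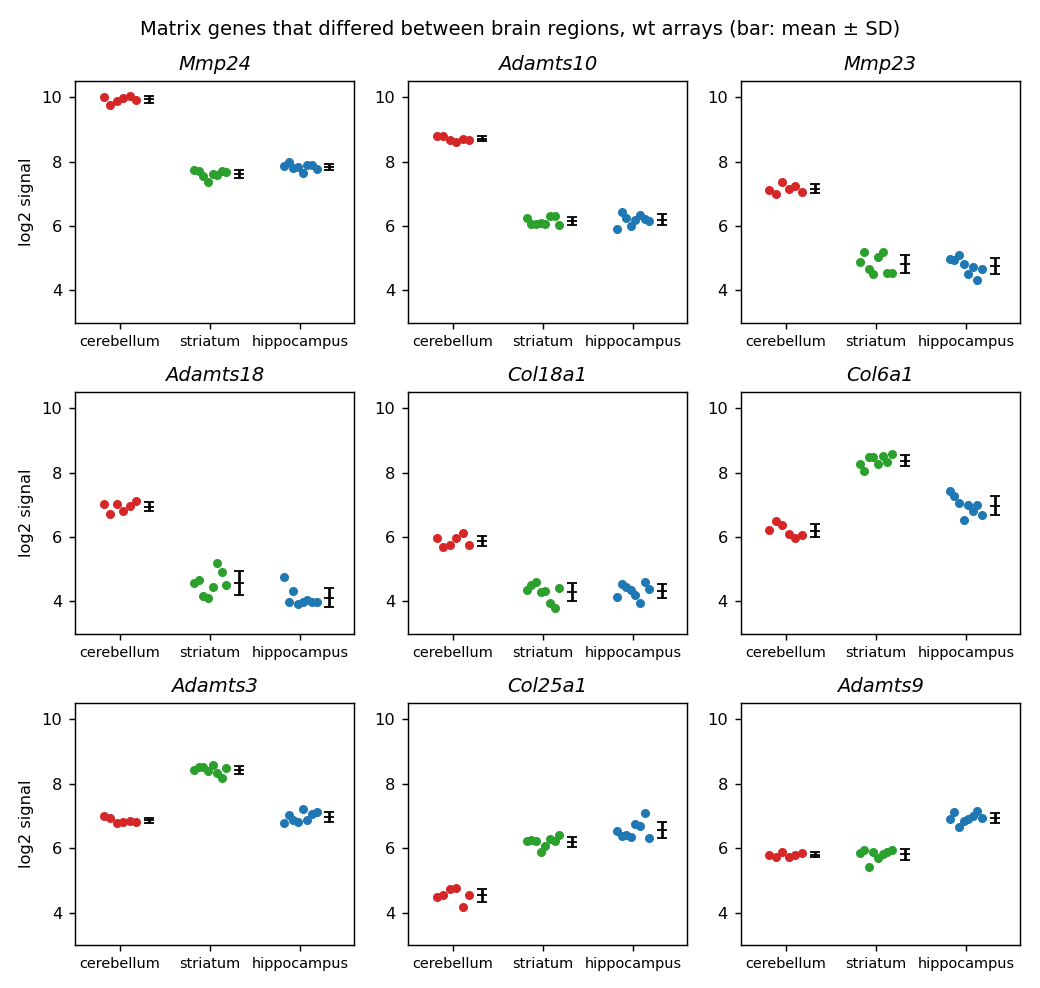
Log2 signal on each wt array (points; bar, mean ± SD) of members with large differences between brain regions, in cerebellum (6 arrays), striatum (8) and hippocampus (8). Adamts10, Adamts18 and Mmp24 stand apart in cerebellum, and Col6a1 and Adamts3 in striatum.

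Col4a1 and Col4a2, which moved the same way in these comparisons, lie head to head on chromosome 8, and Col6a1 is the collagen with the largest striatal difference, so their start regions are shown. Each window runs from 250 bases before to 50 after the start in RefSeq (GRCm38.p6), on the strand of the gene, and such a window was at hand for 66 member genes. The windows are Col4a1, chr8:11312777-11313076, minus strand, 74.0% G and C; Col4a2, chr8:11312555-11312854, plus strand, 73.7%; and Col6a1, chr10:76725995-76726294, minus strand, 57.3%. The starts used for the Col4a1 and Col4a2 windows are 21 bases apart, and the windows share 78 bases. As RefSeq genes, Col4a1 runs to 11312889 and Col4a2 begins at 11312805, so they overlap at these ends. Capitals mark matches on either strand to the GC box (written GGGCGG), the CCAAT box, the TATA box (written TATAAA) and the AP-1 site (written TGACTCA).
Col4a1: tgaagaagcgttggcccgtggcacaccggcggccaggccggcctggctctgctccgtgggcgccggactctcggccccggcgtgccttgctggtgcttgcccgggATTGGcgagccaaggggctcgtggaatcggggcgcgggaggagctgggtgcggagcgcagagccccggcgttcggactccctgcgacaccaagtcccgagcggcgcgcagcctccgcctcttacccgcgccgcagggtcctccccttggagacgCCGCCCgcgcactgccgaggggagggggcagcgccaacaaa
Col4a2: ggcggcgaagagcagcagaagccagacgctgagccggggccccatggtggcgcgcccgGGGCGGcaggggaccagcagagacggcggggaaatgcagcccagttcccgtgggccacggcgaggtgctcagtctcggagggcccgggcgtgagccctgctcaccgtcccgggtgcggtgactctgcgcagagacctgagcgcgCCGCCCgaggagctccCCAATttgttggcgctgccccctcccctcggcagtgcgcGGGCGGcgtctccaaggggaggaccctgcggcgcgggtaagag
Col6a1: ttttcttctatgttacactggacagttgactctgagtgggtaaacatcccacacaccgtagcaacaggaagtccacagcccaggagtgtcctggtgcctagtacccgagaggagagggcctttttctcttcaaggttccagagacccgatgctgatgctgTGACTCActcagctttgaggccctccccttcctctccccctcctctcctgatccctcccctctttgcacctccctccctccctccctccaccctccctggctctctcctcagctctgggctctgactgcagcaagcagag
The Col4a1 window held 1 GC box and 1 CCAAT box, the Col4a2 window 3 GC boxes and 1 CCAAT box, and the Col6a1 window 1 AP-1 site. Of all 27025 windows, 35.6% held the GC box, 37.8% the CCAAT box, 14.1% the TATA box and 5.20% the AP-1 site, and of the 66 member windows 56.1%, 28.8%, 22.7% and 10.6%. The median share of G and C over all windows was 52.7%. These are matches of letters only.

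Of the 6 laminin chains kept, 1 was higher and 4 were lower in cerebellum than in hippocampus, where 36% of all genes were higher and 37.5% lower, and the median difference was -0.35 on the log2 scale. Lamc1, the gamma chain shared by most laminins, had 6.45, 6.61 and 6.66 in cerebellum, 7.09, 7.31 and 7.56 in striatum and 7.0, 7.19 and 7.41 in hippocampus, a difference of -0.60 ± 0.07 (SE, adjusted p = 1.36e-07) in cerebellum from hippocampus. Lama4 and Lama5 differed by -0.41 and -0.30 in the same comparison. Lama1 was the 1 chain higher in cerebellum (0.30). Lama3 differed in cerebellum from hippocampus by -1.30 and from striatum by -1.21. Lama2, Lamb1 and Lamb2 were above background but too even over the brain arrays to be kept. Other matrix genes also differed between the wt regions. Of 9 probe sets for proteoglycans that Adamts enzymes cleave and their partners, 1 was higher (Tnc) and 7 lower in cerebellum than in hippocampus, the neural proteoglycan Ncan among the lower ones with -3.19 and -2.37 for its probe sets. Of 4 probe sets of protease inhibitors, Timp4 (1.73) and A2m (3.21) were higher and Timp2 (-1.85) was lower. In bulk tissue, fewer cells of a type and less RNA per cell cannot be told apart. The endothelium list averaged 6.47 to 6.65 in cerebellum, 6.60 to 6.89 in striatum and 6.57 to 6.76 in hippocampus of wt mice, and the choroid plexus list 4.83 to 6.18, 4.95 to 6.56 and 4.98 to 7.12. In cerebellum against hippocampus, the mural cell list had 0 of 7 probe sets higher and 5 lower. The endothelium list had 0 of 5 higher and 2 lower, and the choroid plexus list 1 of 12 higher and 4 lower. Of all genes, 36% were higher and 37.5% lower. The meningeal and perivascular fibroblast list had 11 of 11 higher in cerebellum than in striatum (median 1.38), against 38.4% of all genes. It had 10 of 11 lower in striatum than in hippocampus (median -0.97), against 24% of all genes. The part of these cells in the regional differences was not tested.

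Genotype was tested with the dosage model of the study, in which limma fits 1 slope over Del/+ (coded -1), wt (0) and Dup/+ (1) in each tissue. No member changed at 5% FDR in any tissue, 0 of 60 in cerebellum, striatum and hippocampus and 0 of 39 in liver. Of all kept probe sets with a gene, 0.218% passed in cerebellum, 0.209% in striatum, 0.246% in hippocampus and 0.131% in liver. At an unadjusted p under 0.05, 9 members had positive and 3 negative slopes in striatum, against 6.58% and 5.17% of all genes. The counts were 1 and 4 in cerebellum (3.32% and 3.17% of all genes), 2 and 1 in hippocampus (3.66% and 3.22%), and 0 and 1 in liver (3.54% and 3.1%). The median slope of the members was 0.05 in striatum and lay between -0.020 and 0.0026 in the other tissues, against a median of 0.0040 over all genes in striatum. In striatum 42 of 60 slopes were positive, against 51.7% of all genes.

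**Figure D3:**
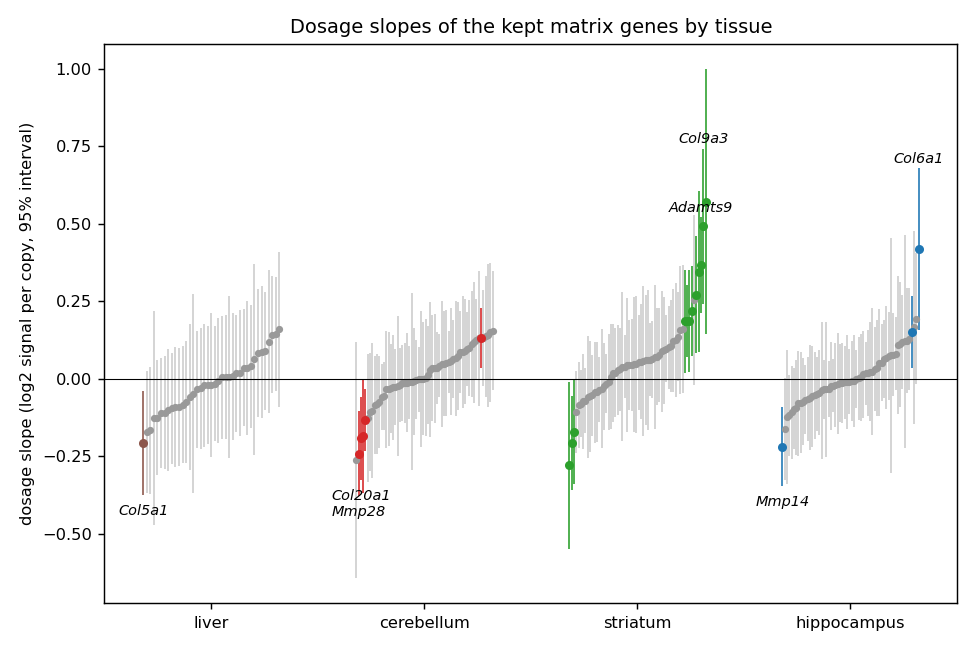
Dosage slope (log2 signal per copy) with its 95% interval for every kept member in liver, cerebellum, striatum and hippocampus, ordered by slope, with those at an unadjusted p under 0.05 in colour and the rest in grey. No member passed 5% FDR, and the positive slopes reach furthest in striatum.

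The member with the lowest p in striatum was Adamts9, a proteoglycan-cleaving protease that is also known as a suppressor of vessel growth. Its log2 signals were 5.53, 5.50, 5.63 and 5.61 in Del/+ mice, 6.19, 6.24, 6.74 and 6.04 in Dup/+ mice and 5.42, 5.87 and 5.94 (lowest, median and highest of 8) in wt mice. All 4 Dup/+ arrays lay above all wt arrays, while the Del/+ arrays lay within the wt range. The slope was 0.37 ± 0.07 (SE, adjusted p = 0.0705), past 10% but not 5% FDR. Against wt the difference was 0.50 ± 0.12 (SE, adjusted p = 0.227) in Dup/+, and -0.24 ± 0.12 (SE, adjusted p = 0.999) in Del/+. Without Dup/+ mice 21 and 47, whose arrays held the thalamus and midbrain signal, the slope was 0.27 (adjusted p = 0.409). The slope was 0.30, 0.36 and 0.41 within each of the 3 plates inferred from array numbers. In cerebellum Adamts9 had 5.78, 5.70 and 5.62 in Del/+, 5.99, 5.86 and 6.04 in Dup/+ and 5.72, 5.80 and 5.90 in wt arrays, a slope of 0.13 ± 0.04 (SE, adjusted p = 0.659).

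Col8a1, a network collagen of vessel walls, and Col9a3, a chain of fibril-associated type IX collagen, had the largest slopes among striatal members. Col9a3 had 4.95, 4.46, 5.34 and 5.09 in Del/+, 6.03, 5.77, 6.27 and 5.71 in Dup/+ and 4.80, 5.15 and 5.82 in wt striatum, a slope of 0.49 ± 0.12 (SE, adjusted p = 0.246). Col8a1 had 4.65, 3.81, 5.63 and 4.57 in Del/+, 5.51, 6.08, 5.94 and 5.72 in Dup/+ and 3.94, 4.87 and 5.35 in wt striatum, a slope of 0.57 ± 0.20 (SE, adjusted p = 0.464). All Dup/+ arrays were above the wt arrays for Col8a1 and 2 of 4 were for Col9a3, and in both genes the Del/+ arrays spread over or past the wt range. The choroid plexus list, of which 11 of 13 probe sets were above background in each brain region, averaged 5.44, 4.51, 7.03 and 5.27 in Del/+, 6.61, 6.77, 7.25 and 6.60 in Dup/+ and 4.95 to 6.56 in wt striatum. Del/+ mouse 23 was the highest and mouse 11 the lowest Del/+ array for the list and for both genes. The part of choroid plexus in these slopes was not tested. The marker Ttr, which is also a liver gene, had 8.29 to 12.80 (lowest to highest) in Del/+, 12.68 to 12.99 in Dup/+ and 9.93 to 12.74 in wt striatum. Without Dup/+ mice 21 and 47 the Col9a3 slope was 0.42 (adjusted p = 0.719). The slope of Col9a3 in striatum differed from that in hippocampus by 0.47 ± 0.13 (SE, adjusted p = 0.428). Col8a1 had a slope of 0.17 ± 0.15 (SE, adjusted p = 0.906) in hippocampus.

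**Figure D4:**
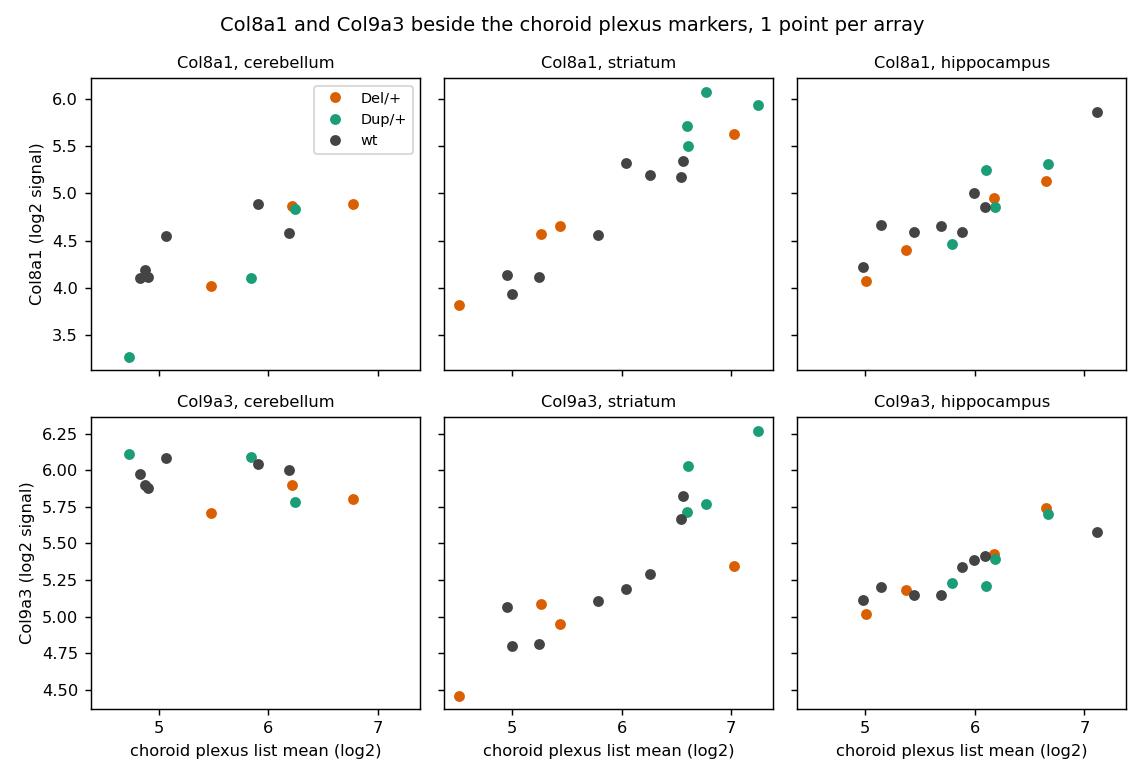
Log2 signal of Col8a1 and Col9a3 (vertical) against the mean log2 signal of the choroid plexus list (horizontal), with 1 point for each array, by genotype and brain region. By eye, striatum and hippocampus arrays with a higher list level tend to have a higher signal of both genes. No correlation was computed in any region.

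Col6a4 was the striatal member furthest from wt in Del/+ mice. It had 3.72, 3.60, 4.06 and 3.61 in Del/+, 4.83, 3.82, 4.26 and 4.85 in Dup/+ and 4.18, 4.59 and 4.74 in wt striatum. All 4 Del/+ arrays lay below all wt arrays and below the background of 4.09, so the Del/+ level is only bounded by that value. The Dup/+ arrays spread on both sides of the wt range. The difference in Del/+ was -0.79 ± 0.17 (SE, adjusted p = 0.25). With only Del/+ and wt arrays in the fit it was -0.79 with an adjusted p of 0.0322. The slope was 0.35 ± 0.12 (SE, adjusted p = 0.464), and without Dup/+ mice 21 and 47 it was 0.59 ± 0.09 (SE), adjusted p = 0.0106. Col6a4 was the 1 member that passed 5% FDR without these arrays, a fit that keeps only Dup/+ mice 19 and 54. The share of all genes past 5% FDR was not worked out for that fit or for Del/+ and wt arrays alone. Adamts19 was above background in no tissue of wt mice (the background was 4.09 in striatum), so its differences from wt are bounds at most. It had 3.76, 4.91, 4.67 and 3.77 in Dup/+ mice 19, 21, 47 and 54, 3.63, 3.67, 3.86 and 3.91 in Del/+ and 3.10, 3.66 and 3.81 in wt striatum, and the arrays of mice 21 and 47 alone stood above background. Adamts3 was low in the same mice, at 8.70, 7.23, 7.33 and 8.13 in the Dup/+ mice in the same order, against 8.20, 8.47 and 8.58 in wt. Without Dup/+ mouse 19, Adamts19 was 0.84 (adjusted p = 0.0459) and Adamts3 -0.87 (adjusted p = 0.0432) in Dup/+ relative to wt, the only members past 5% FDR. That fit keeps mice 21 and 47, and the share of all genes past 5% FDR in it was not worked out. Without mice 21 and 47, the Adamts19 difference was 0.16. For Adamts3, Dup/+ mouse 19 (8.70) lay above and mouse 54 (8.13) below the wt range.

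Of the laminin chains kept in striatum, 3 of 6 had a positive slope at an unadjusted p under 0.05 (6.58% of all genes did), Lama5 (0.19) and Lama4 (0.22), both alpha chains of vessel basement membranes, and Lama1 (0.19). None passed after adjustment (adjusted p = 0.375 for Lama5). Lama5 had 5.34, 5.14, 5.61 and 5.42 in Del/+, 5.86, 5.83, 5.84 and 5.49 in Dup/+ and 5.40, 5.54 and 5.62 in wt mice. The groups overlapped. The meningeal and perivascular fibroblast list averaged 5.08 to 5.40 in Del/+, 5.27 to 6.50 in Dup/+ and 5.19 to 5.55 in wt striatum, and the endothelium list 6.70 to 6.81, 6.55 to 6.79 and 6.60 to 6.89. Of the choroid plexus probe sets 10 of 12 had a positive slope in striatum at an unadjusted p under 0.05 (median 0.60), and of the fibroblast probe sets 6 of 11 (median 0.38). Their part in the laminin slopes was not tested. Adamts15 (0.27), Col6a4, Col26a1 (0.19), Adamts3 (-0.28), Mmp17 (-0.17) and Mmp28 (-0.21) made up the rest of the 12.

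**Figure D5:**
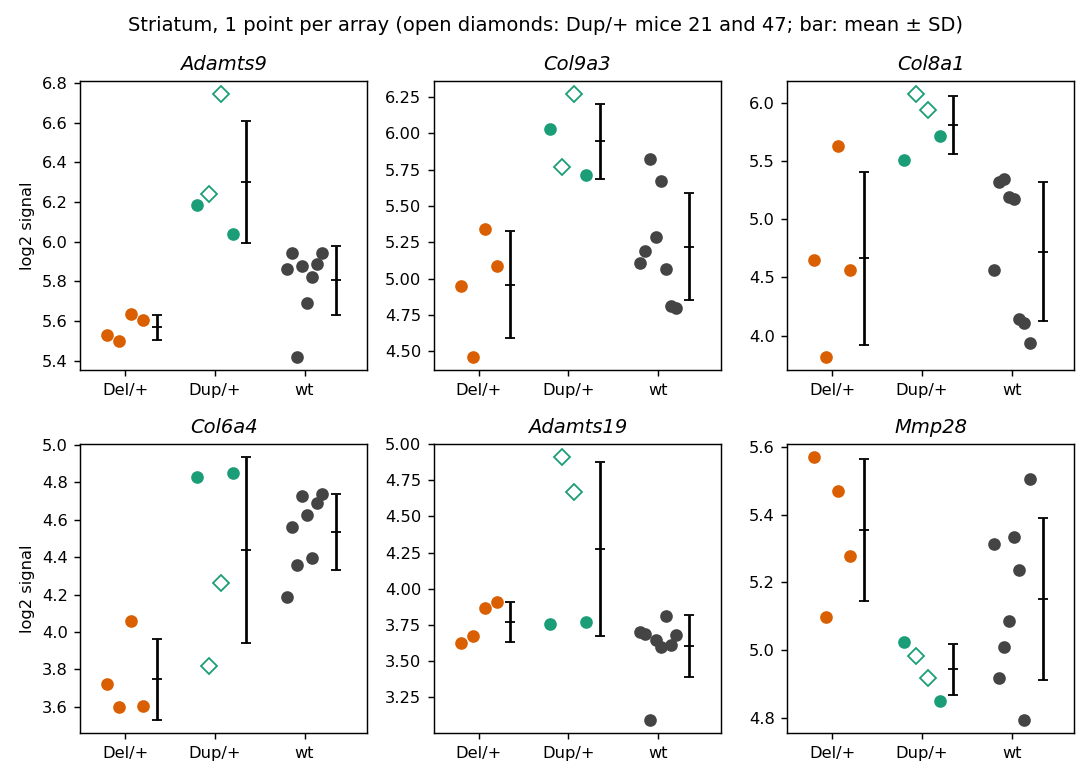
Log2 signal of striatal members on each array in Del/+, Dup/+ and wt mice (points; bar, mean ± SD), with Dup/+ mice 21 and 47 as open diamonds. Adamts9 is above every wt array in all 4 Dup/+ mice, and Col6a4 is below every wt array in all 4 Del/+ mice.

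In hippocampus the lowest p belonged to Mmp14, the membrane-bound activator of pro-Mmp2. It had 7.12, 6.77, 6.79 and 6.87 in Del/+, 6.40, 6.32, 6.71 and 6.38 in Dup/+ and 6.32, 6.65 and 6.76 in wt mice, a slope of -0.22 ± 0.06 (SE, adjusted p = 0.344). All Del/+ arrays lay above all wt arrays, and all Dup/+ arrays lay within the wt range. Mmp17 had 8.94, 8.91, 8.91 and 8.99 in Del/+ and 8.53, 8.70 and 8.88 in wt hippocampus, a difference of 0.23 ± 0.08 (SE, adjusted p = 0.636). Col6a1 had 6.32, 6.78, 6.57 and 6.19 in Del/+, 6.69, 7.08, 7.30 and 8.13 in Dup/+ and 6.52, 7.0 and 7.42 in wt hippocampus, a slope of 0.42 ± 0.12 (SE, adjusted p = 0.414). Its highest value came from Dup/+ mouse 47, the array with the striatal signal, and Col6a1 was highest in striatum among wt regions. Without that array the slope was 0.30 (adjusted p = 0.716), and the part of striatal tissue in the value was otherwise not tested. Within the 3 inferred plates the Col6a1 slope was 0.67, -0.05 and 0.46. Col27a1, a fibrillar collagen, had a slope of 0.15 ± 0.05 (SE, adjusted p = 0.668). In cerebellum Mmp28 came first, with 5.58, 5.63 and 5.44 in Del/+, 5.18, 5.04 and 4.99 in Dup/+ and 5.11, 5.40 and 5.59 in wt mice, a slope of -0.24 ± 0.06 (SE, adjusted p = 0.446). In striatum Mmp28 had a slope of -0.21 ± 0.07 (SE, adjusted p = 0.449). The difference between these slopes was -0.04 ± 0.10 (SE, adjusted p = 0.96). Col20a1 (-0.19), Col13a1 (-0.13) and Mmp11 (-0.19) also had negative slopes in cerebellum, none past 5% FDR.

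In liver Col5a1, a fibrillar chain that sets fibril diameter, had 5.01, 4.76 and 4.67 in Del/+, 4.40, 4.19 and 4.61 in Dup/+ and 4.50, 4.66 and 4.75 (lowest, median and highest of 6) in wt mice, a slope of -0.21 ± 0.08 (SE, adjusted p = 0.598). The Del/+ arrays all lay above the Dup/+ arrays, and each of these groups overlapped with wt. Lama3 had 5.92, 6.08 and 5.75 in Del/+, 5.58, 5.57 and 5.57 in Dup/+ and 5.37, 5.46 and 5.82 in wt liver, with a slope of -0.17 ± 0.09 (SE, adjusted p = 0.729), and a difference of 0.40 ± 0.15 (SE, adjusted p = 0.929) in Del/+ from wt. The member of highest rank in liver, Col18a1, had 9.13, 9.13 and 9.22 in Del/+, 9.01, 9.21 and 9.10 in Dup/+ and 8.88, 9.05 and 9.20 in wt mice. It was not kept by the variance filter, and the genotypes overlapped.

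Each genotype was also set against wt alone, and both comparisons share the wt arrays. No member differed at 5% FDR in limma. In Del/+ mice, 0.146% of all genes did in cerebellum, 0.155% in striatum, 0.191% in hippocampus and 0% in liver, and in Dup/+ mice 0%, 0.0091%, 0.091% and 0% in the same tissues. At an unadjusted p under 0.05, 0, 1, 5 and 1 members differed in Del/+ mice (4.65%, 2.55%, 6.35% and 4.73% of all genes), and 3, 12, 2 and 0 in Dup/+ mice (3.11%, 16.8%, 4.13% and 2.04%). The 12 striatal members in Dup/+ were 20% of 60, and without mice 21 and 47 the count was 4. The share of all genes in the fit without these mice was not worked out, so that count has no such comparison. The smallest p values in Del/+ belonged to Adamts5 (0.34), Col9a3 (-0.18) and Mmp11 (0.24) in cerebellum, Col6a4, Adamts9 and Lama4 (-0.23) in striatum, Mmp17, Mmp14 (0.30) and Col6a1 (-0.51) in hippocampus, and Lama3, Col9a2 (0.34) and Adamts10 (0.27) in liver. In Dup/+ they belonged to the Col6a1 probe set not above background there (0.34, the other one -0.10), Mmp28 (-0.31) and Col13a1 (-0.19) in cerebellum, Adamts9, Col9a3 (0.72) and Adamts19 (0.67) in striatum, Mmp11 (-0.27), Col17a1 (0.24) and Col27a1 (0.20) in hippocampus, and Col5a1 (-0.25), Adamts4 (-0.26) and Adamts13 (-0.25) in liver, each a log2 difference from wt. Slopes were compared between regions in 1 fit. No member differed at 5% FDR, against 0.0364% of all genes for cerebellum minus striatum, 0% for cerebellum minus hippocampus and 0% for striatum minus hippocampus. At an unadjusted p under 0.05 the counts were 9, 2 and 7 of 60 (10%, 4.21% and 9.71% of all genes). Adamts9 differed by 0.30 ± 0.08 (SE, adjusted p = 0.428) between striatum and hippocampus, and Col8a1 by -0.83 ± 0.27 (SE, adjusted p = 0.429) between cerebellum and striatum. The other matrix lists (protease inhibitors, matrix receptors, collagen-making enzymes, basement membrane partners and proteoglycans cleaved by Adamts) also had no gene past 5% FDR in any genotype comparison, and at an unadjusted p under 0.05 each had 0 to 3 probe sets in a given direction, of 3 to 12 tested. The highest counts in Dup/+ striatum were 3 of 5 probe sets of matrix receptors and 3 of 12 of collagen-making enzymes, higher than in wt. Another 1 of the 12 was lower. Of all 10994 genes, 977 were higher and 873 lower in this comparison (16.8% in either direction).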

How the data were processed

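RNA of 56 pieces of mouse tissue was measured on Affymetrix Mouse Gene 2.1 ST arrays, 1 array each. The values used are the deposited table of log2 signals per probe set, which the authors made with Affymetrix Expression Console (named without a version in the submitters' processing notes) and quantile normalized separately for 44 brain and 12 liver arrays. The log2 scale was inferred from the range of the values. The labels name a 3' labelling kit, whereas the array carries probes along whole transcripts.

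Probe sets were kept when their maximum reached the median of all signals (4.85 in brain, 3.61 in liver) and their variance exceeded the 25th percentile, over the arrays normalized together, as in the methods of the study. This left 19389 brain and 18982 liver probe sets, 10994 and 10672 of them with a gene. Of 101 members, 60 were kept in brain and 39 in liver, and 35 and 38 were too low. Slopes, genotype differences, regional differences and slope differences were fitted with limma 3.58.1 (R 4.3.3, lmFit and eBayes), with Benjamini-Hochberg adjustment over all kept probe sets. The scripts were tested on simulated data.

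Array precision is limited by the number of arrays. Mouse number 17 is labelled wt in hippocampus and liver and Del/+ in cerebellum, and each array was used as labelled. In 22 pairs of brain arrays with the same mouse number and genotype, deviations from group means correlated between -0.118 and 0.0892 (median 0.016, 0 above 0.1). The same mouse links these arrays, so the fit with the mouse as a block was also run. Plates were inferred from array numbers in blocks of 24. Probe sets were named by the platform annotation, in which 23521 list 1 symbol, 1820 several and 15814 none, and the coordinates and promoter sequences are those of RefSeq (GRCm38.p6).

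Members named were those of lowest p in each genotype fit, of largest difference between regions, of highest percentile, and a list of well-known matrix genes. The members and the lists were chosen with earlier results of these data known. Alternatives covered the filter, the moderation, the normalization, the coding of dosage, plates, mice and leaving out arrays. Leaving out Dup/+ mice 21 and 47 in striatum, or Dup/+ mouse 47 in hippocampus, was added after seeing the data.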

Additional observations from a re-analysis of the deposited data

Results flagged for a closer look

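Of 79 groups of 4 to 10 arrays examined for an array far from the others, 7 held one, and chance gives about 1 in 20. In hippocampus of Del/+ mice, mouse 7 had log2 signals of 5.07 for Col27a1 (nearest other array 4.78) and 4.01 for the second Col6a1 probe set (nearest 3.53). In striatum of wt mice, mouse 16 had 3.095 for Adamts19 (nearest 3.60), below background. In striatum of Dup/+ mice, mouse 54 had 5.49 for Lama5 (nearest 5.83), and in striatum of Del/+ mice, mouse 11 had 3.99 for Adamts15 (nearest 4.43). The striatal neuron list stood at 9.95 in hippocampus of Dup/+ mouse 47 (nearest 6.85), and the thalamus and midbrain list at 5.83 in striatum of wt mouse 48 (nearest 5.45). No slope difference between brain regions passed 5% FDR for a member.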

How the results depend on the processing

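For the regional differences, alternatives were followed only for the members furthest apart in each pair of regions, among them Adamts10, Mmp24, Adamts3 and Col25a1. These kept their direction and their side of 5% FDR under all alternatives run. The other regional differences given, such as those of Col4a1, Col1a2, Mmp9, Adamts15 and Lamc1, were not followed in this way. In the genotype fits 4 alternative values of members passed 5% FDR where the main ones did not. These were the Col6a4 slope in striatum without Dup/+ mice 21 and 47 (0.59), Col6a4 in Del/+ striatum with only these genotypes in the fit (-0.79), and Adamts19 (0.84) and Adamts3 (-0.87) in Dup/+ striatum without mouse 19. The shares of all genes past 5% FDR in these fits were not worked out. Among the members of lowest p in each genotype fit, no alternative fit over a whole tissue reversed a slope or difference. Within single inferred plates of 4 to 6 arrays, the slope of Col6a1 in hippocampus (-0.05, main 0.42), Col9a2 in liver (0.06, main -0.17) and Mmp24 in liver (-0.02, main 0.14) had the opposite sign. The counts of members at 5% FDR moved to 1 for the striatal slope without Dup/+ mice 21 and 47 (main 0), to 1 for Del/+ striatum with only these genotypes in the fit (main 0), and to a range of 0 to 2 for Dup/+ striatum when arrays were left out 1 at a time.

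At an unadjusted p under 0.05, counts moved by over 1.5 times as follows. The shares of all genes in these alternative fits were not worked out. Without Dup/+ mice 21 and 47, striatal slopes gave 7 (main 12) and Dup/+ striatum 4 (main 12). With only these genotypes in the fit, Del/+ striatum gave 2 (main 1). With no filter, counts were 5 for Dup/+ hippocampus (main 2), 2 for Del/+ striatum (main 1), 8 for cerebellar slopes (main 5), 5 for Del/+ cerebellum (main 0), 5 for Dup/+ cerebellum (main 3), 2 for liver slopes (main 1), 3 for Del/+ liver (main 1), 2 for Dup/+ liver (main 0) and 7 for the slope difference of cerebellum and hippocampus (main 2), where all 101 members were tested. Cerebellar slopes gave 3 with the filter worked out within the tissue and 3 with a variance trend and robust moderation. Del/+ cerebellum gave 1 with plate as a block, and liver slopes gave 2 with the log2 copy ratio. Leaving out 1 array at a time, whatever the size of the shift, gave 3 to 5 for hippocampal slopes, 8 to 14 for striatal slopes, 4 to 7 for cerebellar slopes and 0 to 2 for liver slopes. It gave 1 to 6, 1 to 3, 0 to 2 and 1 to 2 for Del/+ in hippocampus, striatum, cerebellum and liver, and 1 to 5, 7 to 14, 1 to 4 and 0 to 1 for Dup/+ in the same tissues. The cause was not tested, except that fewer or more probe sets or arrays entered by construction.

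The fit with mouse number as a replicate block (pairing of regions of the same mouse, estimated correlation 0.012 for regions and 0.010 for slopes) changed no call and no count by over 1.5 times. Small groups of 3 or 4 mutant arrays limit what the genotype fits can show.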
